A study of Mus musculus with 18 samples.

Results

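Collagens are the triple-helical proteins of the extracellular matrix, and their genes were taken as all genes whose annotated symbol has the form Col, number, a, number. Each was represented by 1 probe set, the brightest by mean RMA value (a background-corrected summary on a log2 scale) among those annotated to that symbol alone. This gave 42 collagen genes among 18194 genes, of which 29 were among the 10916 genes tested, the upper 60% by mean RMA value. The gene with the lowest mean among the collagens tested was Col15a1 at 9.47, and the highest untested was Col20a1 at 9.32, on either side of a limit of 9.42. Col6a6 and Col28a1, which belong to the same family, were not analysed here.

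The study measured whole brains of mouse pups of both sexes at postnatal day 8, and asked how acute lead exposure alters brain expression with and without metallothioneins, small proteins that bind metals. The pups were homozygous (-/-, Mt-KO), heterozygous (+/-) or wild-type (+/+) for a metallothionein knockout on the C57BL/6J background, reached by at least 7 generations of backcrossing. Pups of each genotype were injected with lead acetate (50 mg/kg) or with saline, with 2 injections 4 h apart on postnatal day 7 and again on day 8, and were killed 6 h after the final one. For each combination of genotype and treatment, the RNA of 5 pups formed 1 pool and was hybridised to 1 array, so there were 6 pools and no combination was replicated. The 3 genotypes therefore stood in as replicates of the lead comparison, and the p-values rest on the spread that the fits left over rather than on repeated pools. The labels do not state which metallothionein genes or which parts of them were altered.

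Identical or related collagen chains wind into a helix in the endoplasmic reticulum, where proline and lysine hydroxylases and the chaperone Serpinh1 act on them. Fibrillar collagens are secreted as procollagens, trimmed, and packed into the banded fibrils of skin, bone and, around the brain, the meninges. Type IV collagens form the sheet-like network of basement membranes, which in brain lies under endothelial cells and at the pial surface. Smaller groups decorate fibrils, form beaded filaments, span the plasma membrane or release signalling fragments, and some of these are made by neurons.

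The sequences just upstream of 2 fibrillar genes are shown because those genes differed in how far the heterozygous lead pool stood from the others, as described below. They are the 250 bases before the annotated start of Col1a2, a chain of type I collagen, at chr6:4505368-4505617, plus strand, and of Col3a1, the chain of type III collagen, at chr1:45311288-45311537, plus strand (GRCm38.p6, RefSeq, written 5′ to 3′). Capitals mark matches to CCAAT, to GGGCGG and to TATAAA, each searched on both strands.
Col1a2: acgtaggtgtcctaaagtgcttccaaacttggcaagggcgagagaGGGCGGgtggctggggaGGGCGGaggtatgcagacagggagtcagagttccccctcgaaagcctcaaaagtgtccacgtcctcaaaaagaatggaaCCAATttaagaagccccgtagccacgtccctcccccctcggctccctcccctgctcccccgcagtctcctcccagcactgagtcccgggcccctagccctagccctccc
Col3a1: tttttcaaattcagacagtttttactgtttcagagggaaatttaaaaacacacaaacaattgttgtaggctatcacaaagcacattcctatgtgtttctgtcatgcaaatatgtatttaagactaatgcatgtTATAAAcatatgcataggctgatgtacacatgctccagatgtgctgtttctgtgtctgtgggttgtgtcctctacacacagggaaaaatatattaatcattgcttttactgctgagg
The Col1a2 stretch was 62% G and C and held GGGCGG 205 and 188 bases, and CCAAT 109 bases, before the start. The Col3a1 stretch was 35.2% G and C and held TATAAA 117 bases before the start. Of 33 collagen genes with such a sequence, 13 (39.4%) held CCAAT, 20 (60.6%) held GGGCGG and 5 (15.2%) held TATAAA. Over all 32851 RefSeq stretches of that length the shares were 33.8%, 32.7% and 12.4%. The collagens were counted by gene, with any matching stretch sufficient, and the background by stretch, so the shares are not strictly comparable. These matches describe letters only, and the arrays hold no measurement of binding. Relative to the array medians, the heterozygous lead pool exceeded the next highest pool by 0.11 (log2) for Col1a2 and 0.01 for Col3a1. That small difference rests on 1 unreplicated pool and was not tested. Col1a1 had the largest such margin of the collagens, 0.33, but no upstream sequence was available for it.

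Metallothionein transcripts followed the genotype labels, with Mt-KO coefficients against wild-type of -1.54 for Mt1 and -0.81 for Mt2 (log2, limma adjusted p = 5.95e-09 and 0.0213). The median of the genes tested lay between 10.87 and 11.05 on the 6 arrays, and lead minus saline of these medians was 0.09 in the Mt-KO, 0.13 in the heterozygous and -0.18 in the wild-type pair. Differences within a pair are therefore given relative to the array medians. The Mt-KO lead pool had the highest value of the Y-linked Eif2s3y, 11.16, and the Mt-KO saline pool the lowest, 6.50. The X-linked Xist ran the other way, lowest in the Mt-KO lead pool at 10.23 and highest in the Mt-KO saline pool at 12.75. In the wild-type pair Eif2s3y was lower with lead, 9.45 against 10.45, and Xist higher, 12.20 against 11.91. The heterozygous pair had Eif2s3y at 10.16 with lead and 9.93 with saline, and Xist at 12.04 and 12.19. In the Mt-KO and wild-type pairs, lead and the sex make-up of the pools cannot be told apart. Both pairs enter the lead and interaction fits. The heterozygous lead pool held the pituitary hormone transcripts Gh and Pomc at 11.48 and 10.96, against 9.29 to 9.83 and 9.36 to 9.73 in the other 5 pools, from probe sets with mean GC-RMA values of 2.90 and 1.94.

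None of the 29 collagen genes tested passed the threshold (limma, Benjamini-Hochberg adjusted p under 0.05 over all genes tested) for lead, for Mt-KO or for the heterozygote. The shares of all genes that passed were 0.119% for lead, 0.431% for Mt-KO against wild-type and 0.119% for heterozygous against wild-type. At an unadjusted p under 0.05 the collagen counts were 0, 1 (3.45%) and 0, against 1.53%, 3.5% and 1.2% of all genes. The median lead coefficient of the collagens was 0.04 (log2, range -0.12 to 0.20), against 0.02 over all genes tested, and 17 of 29 lay above that median gene. Most of what follows therefore describes levels and single pools, and gives fitted differences as values that did not pass.

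**Figure D1:**
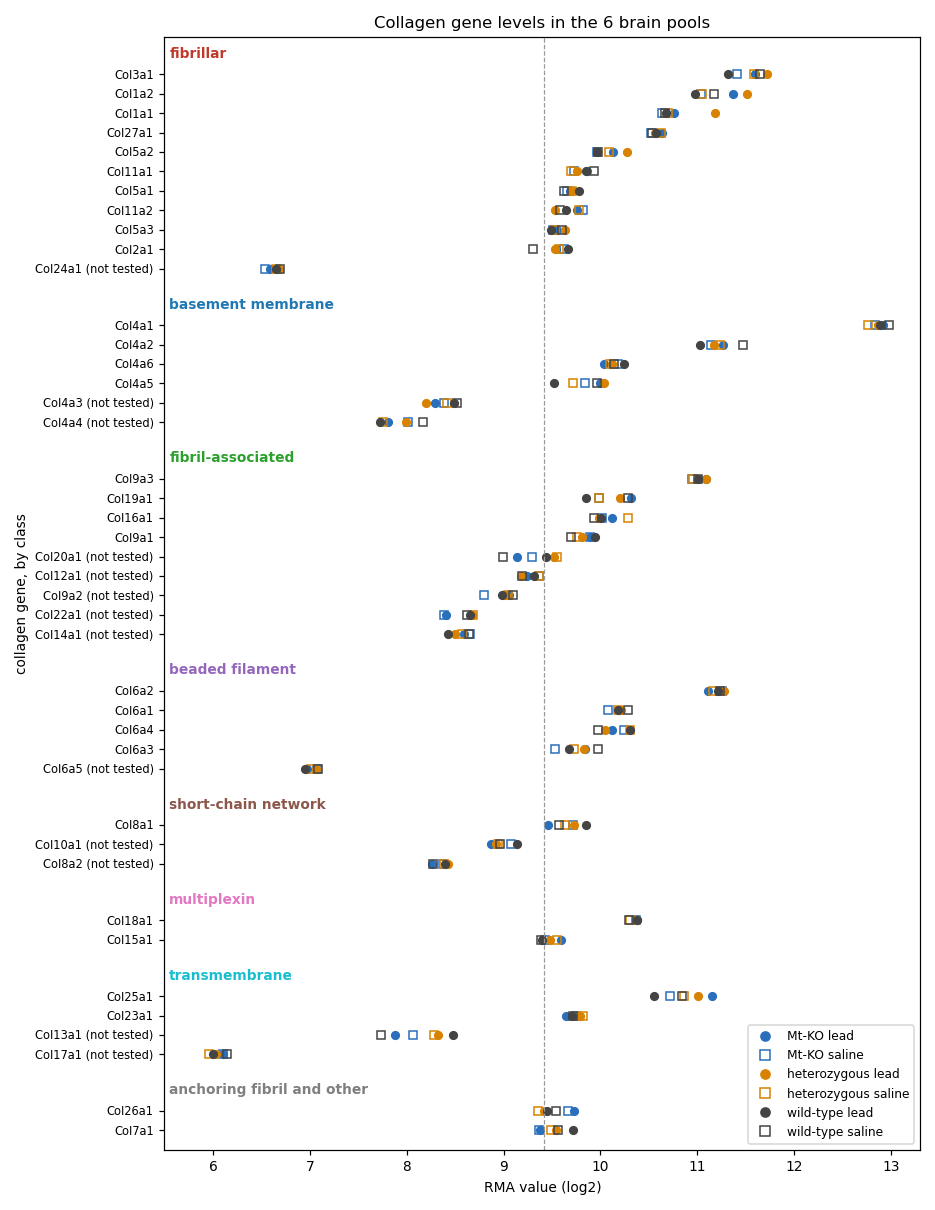
RMA value (log2) of each of the 42 collagen genes in each pool, grouped by class, with filled circles for lead and open squares for saline and 1 colour per genotype. The dashed line marks the limit of 9.42, and genes with a mean above it were tested, and the 6 pools of a gene lie within 0.59 of each other for every collagen tested. Values of different probe sets are not comparable as amounts.

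The fibrillar class held 11 genes, of which 10 were tested. Col3a1, the type III chain found in vessel walls and meninges, had RMA values of 11.60, 11.72 and 11.32 in the Mt-KO, heterozygous and wild-type lead pools, against 11.41, 11.58 and 11.65 in the saline pools of those genotypes. The lead and saline pools overlapped, with the heterozygous lead pool highest and the wild-type lead pool lowest. Its lead coefficient was 0.00 (SE 0.15). A second Col3a1 probe set, with a mean RMA value of 8.26, gave pair differences of 0.14 in Mt-KO, -0.09 in heterozygous and -0.35 in wild-type brain, against 0.10, 0.01 and -0.15 for the first.

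Type I collagen, the main fibril of skin, bone and dura, is built from the products of Col1a1 and Col1a2. Col1a1 had RMA values of 10.76, 11.18 and 10.68 in the Mt-KO, heterozygous and wild-type lead pools, against 10.64, 10.70 and 10.67 in the corresponding saline pools. Col1a2 had 11.37, 11.51 and 10.98 in the lead pools in that order of genotypes, against 11.04, 11.05 and 11.17 in the saline pools. Both genes were highest in the heterozygous lead pool, and for both the groups overlapped. As deposited, the wild-type lead pool lay inside the saline range for Col1a1 and below it for Col1a2. Relative to the array medians, Col1a1 was -0.19 in the wild-type lead pool, above the saline range of -0.38 to -0.21. Its Mt-KO lead pool, at -0.26, lay inside that range. Col1a2 was then 0.11 in the wild-type lead pool, against 0.12 to 0.14 in the saline pools. The lead coefficients, 0.20 (SE 0.13) for Col1a1 and 0.20 (SE 0.14) for Col1a2, were the largest of the collagens by size of t but missed the threshold (limma adjusted p of 1 for each).

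The second probe sets of these genes showed the same high pool. The second Col1a1 probe set had 10.34, 10.91 and 10.22 in the Mt-KO, heterozygous and wild-type lead pools, against 9.89, 10.09 and 10.15 in the saline pools. Every lead pool thus lay above every saline pool, with pair differences of 0.36, 0.69 and 0.25 relative to the array medians. The Col1a1 lead coefficient was 0.33 (SE 0.12) from the mean over probe sets and 0.70 (SE 0.30) from GC-RMA, and neither passed. The second Col1a2 probe set had 11.13, 11.56 and 10.84 in the lead pools, against 10.88, 11.07 and 11.04 in the saline pools. Its pair differences were 0.15, 0.36 and -0.02. The remaining Col1a2 probe set had a mean RMA value of 6.51 and a mean GC-RMA value of 2.24. It was not highest in the heterozygous lead pool, at 6.56 there and 6.39 to 6.62 elsewhere. GC-RMA, the deposited summary that also corrects for probe base composition, gave the first Col1a1 probe set 10.01 in the heterozygous lead pool, against 8.39 to 9.13 in the other 5.

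Relative to the array medians, Col1a1 in the heterozygous lead pool exceeded the next highest pool by 0.33 (log2), which ranked 4 among the 10916 genes tested, after Gh, Pomc and Tra2a. Col1a2 exceeded it by 0.11 and ranked 211, while the margins of Col5a2, Col3a1 and Col4a5 were 0.05, 0.01 and 0.01. In all, 5 of 29 collagens were highest in that pool, against 14.9% of all genes. Ranking genes by this margin, and naming Tra2a, Ctss, Sp4, Sox2, Mbp, Ctsk, Postn, Mgp, Igf2 and Aspn, was done after the values were seen. Ranks 5 to 8 were held by Ctss, Sp4, Sox2 and the neural marker Mbp. Ctsk and Postn ranked 19 and 23 by the margin of that pool. Ctsk, a collagen-degrading protease of osteoclasts, had 10.40 in that pool and 9.91 to 10.21 elsewhere, and Postn, a matrix protein of bone and fibrous tissue, had 10.06 against 9.57 to 9.78. Their mean GC-RMA values were 2.87 and 7.44. The bone markers of the marker list did not peak there, with Ibsp at 7.45 in the heterozygous lead pool and 7.67 in the heterozygous saline pool, and Sp7 at 10.21 and 10.24 in the same pools. The mean GC-RMA values were 3.36 for Ibsp, which was not tested, and 3.86 for Sp7. Such low values limit what these 2 probe sets can show.

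**Figure D2:**
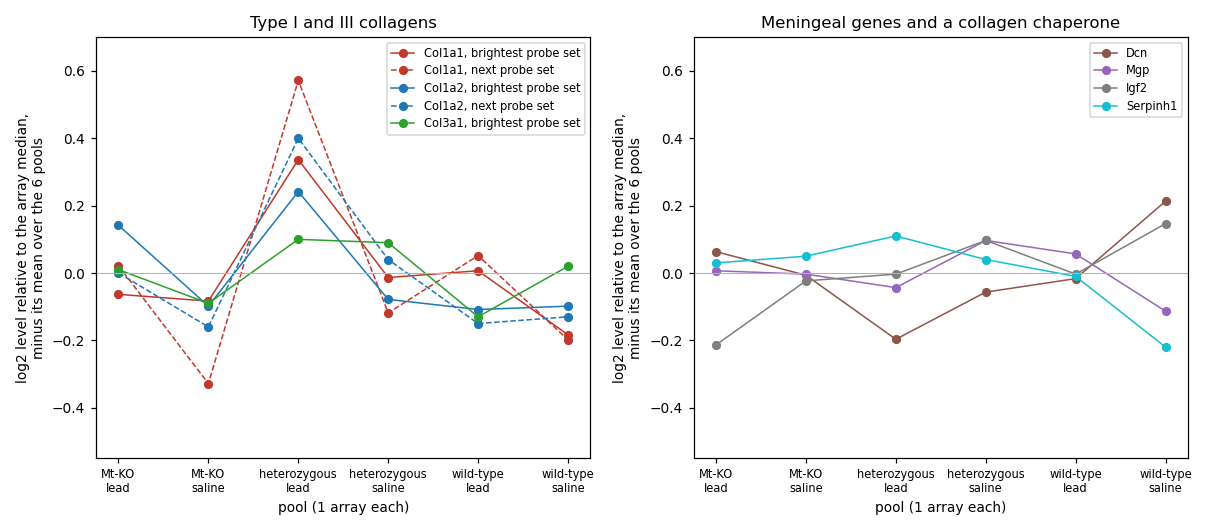
Level of each probe set relative to the array median, minus its mean over the 6 pools (log2), with 1 point per pool and lines that only join points of 1 probe set. All 4 type I probe sets shown on the left peak in the heterozygous lead pool, as does Serpinh1 on the right, whereas Dcn, Mgp and Igf2 do not. The meningeal marker Ptgds, not shown, had an RMA value of 14.96 in that pool and 14.32 to 14.94 elsewhere.

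Without the heterozygous pair the lead coefficients were 0.06 (SE 0.21) for Col1a1 and 0.07 (SE 0.22) for Col1a2. Marker lists of other tissues did not all peak in the heterozygous lead pool. The summed linear level (2 raised to the RMA value) of 14 meningeal fibroblast markers was 39668, 48702 and 40345 in the Mt-KO, heterozygous and wild-type lead pools, against 37160, 39991 and 49366 in the saline pools. That sum moved with its brightest member Ptgds, a prostaglandin synthase of the meninges, at 14.49, 14.96 and 14.62 in the lead pools, against 14.32, 14.50 and 14.94 in the saline pools. Relative to the array medians, the median marker of the list lay at -1.20, -1.33 and -1.23 (log2) in the lead pools, against -1.08, -1.10 and -1.34 in the saline pools, so the heterozygous lead and wild-type saline pools were highest by the sum and lowest by the median. Dcn, a proteoglycan of meningeal fibroblasts, had 10.66, 10.43 and 10.44 in the lead pools, against 10.50, 10.44 and 10.85 in the saline pools. Aspn, another proteoglycan, was not tested (mean GC-RMA value 5.14). It had 6.45 in the heterozygous lead pool and 5.86 to 6.02 elsewhere. The 12 measured markers of skull, cartilage, bone, skin and muscle summed to 6067, 6886 and 6357 in the lead pools, against 6375, 6721 and 6825 in the saline pools, and 8 of the 12 had a mean GC-RMA value under 5. That sum was highest in the heterozygous lead pool. So were the choroid plexus, pituitary and neural sums, at 41441, 7026 and 102594, against 40775, 3298 and 91896 in the next highest pool. The pericyte and smooth muscle sum and the endothelial sum were highest in the wild-type saline pool. No sum was corrected for the array medians. The part of dissected tissue, including pituitary, in the type I collagen values was not tested. In pooled whole brain, fewer cells of a type and less RNA per cell cannot be told apart.

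As deposited, the other fibrillar genes varied less between pools. Col5a2, whose product joins type I fibrils and limits their diameter, had 10.13, 10.27 and 9.96 in the Mt-KO, heterozygous and wild-type lead pools, against 9.96, 10.09 and 9.97 in the saline pools. Lead lay above saline in all 3 pairs relative to the array medians, by 0.08, 0.05 and 0.16 in Mt-KO, heterozygous and wild-type brain, and the lead coefficient was 0.11 (SE 0.12). A second Col5a2 probe set gave 0.08, 0.07 and 0.00.

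Col11a1, a type XI chain that nucleates thin fibrils in cartilage, had 9.86, 9.76 and 9.85 in the lead pools of Mt-KO, heterozygous and wild-type brain, against 9.73, 9.70 and 9.93 in the saline pools. Col27a1, a fibrillar collagen of cartilage, had 10.64, 10.56 and 10.57 in the lead pools, against 10.52, 10.63 and 10.53 in the saline pools, a range of 0.11. In both genes the groups overlapped. The remaining tested members, Col5a1, Col5a3, Col11a2 and Col2a1, had means of 9.54 to 9.69 and GC-RMA means of 2.17 to 4.38, and Col24a1, at a mean of 6.63, was not tested.

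Type IV collagen of most basement membranes is a heterotrimer of the Col4a1 and Col4a2 products. The 2 genes lie on chromosome 8 and their annotated spans overlap by 85 bases. Col4a1 had RMA values of 12.92, 12.87 and 12.89 in the Mt-KO, heterozygous and wild-type lead pools, against 12.83, 12.76 and 12.98 in the saline pools. Col4a2 had 11.27, 11.17 and 11.03 in the lead pools, against 11.14, 11.23 and 11.47 in the saline pools. Relative to the array medians, lead minus saline was 0.00, -0.03 and 0.09 for Col4a1 in the Mt-KO, heterozygous and wild-type pairs, and 0.04, -0.19 and -0.26 for Col4a2. The pair with opposite signs was wild-type, and neither coefficient passed (Col4a1 0.04, SE 0.20, and Col4a2 -0.12, SE 0.14). A second Col4a1 probe set, with a mean of 11.52, gave -0.07, -0.18 and 0.20.

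Col4a5 and Col4a6, whose products form other type IV networks, lie 1274 bases apart on the X chromosome. Col4a5 had 10.00, 10.04 and 9.52 in the lead pools of Mt-KO, heterozygous and wild-type brain, against 9.84, 9.72 and 9.96 in the saline pools, so the wild-type lead pool was the lowest of the 6. Col4a6 had 10.04, 10.12 and 10.24 in the lead pools, against 10.18, 10.10 and 10.14 in the saline pools, with the wild-type lead pool the highest. Its mean GC-RMA value was 3.21, against an RMA mean of 10.14. In the Mt-KO pair, where Eif2s3y differed most, the lead minus saline differences were 0.07 for Col4a5 and -0.24 for Col4a6. Second probe sets gave 0.09, -0.13 and 0.16 for Col4a5 in the 3 pairs from Mt-KO to wild-type, and -0.14, -0.27 and 0.19 for Col4a6. Col4a3 and Col4a4, chains of the kidney glomerular network that sit side by side on chromosome 1, had means of 8.39 and 7.91 and were not tested.

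The fibril-associated class held 9 genes, of which 4 were tested. Col9a3, a chain of type IX collagen on cartilage fibrils, had 11.09, 11.09 and 11.01 in the lead pools of Mt-KO, heterozygous and wild-type brain, against 10.95, 10.96 and 11.01 in the saline pools. No lead pool lay below a saline pool as rounded, yet the coefficient of 0.10 (SE 0.14) did not pass. Its second probe set, with a mean GC-RMA value of 12.56, gave pair differences of 0.34, 0.18 and 0.30 relative to the array medians, all above 0, against 0.06, 0.00 and 0.19 for the first. The remaining probe set, with an RMA mean of 7.65, gave 0.13, -0.19 and 0.21.

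Col9a1, another type IX chain, had 9.89, 9.81 and 9.94 in the lead pools, against 9.89, 9.76 and 9.70 in the saline pools, and a mean GC-RMA value of 3.12. A second Col9a1 probe set with nearly the same RMA mean, 9.81, had a mean GC-RMA value of 8.51 and gave pair differences of 0.08, -0.12 and 0.18. In the deposited PLIER summary Col9a1 was the only collagen to pass for Mt-KO (0.99, SE 0.23, limma adjusted p = 0.00348), where 0.623% of all genes passed. It was also the only collagen to pass there for the interaction (0.54, SE 0.15, limma adjusted p = 0.036), with 1.3% of all genes. Its Mt-KO coefficient from RMA was 0.07 (SE 0.14). Col16a1, an associate of fibrils in skin and cartilage, had 10.12, 9.98 and 10.01 in the lead pools, against 10.02, 10.28 and 9.93 in the saline pools, with the heterozygous saline pool the highest. The 5 dimmer members, Col20a1, Col12a1, Col9a2, Col22a1 and Col14a1, had means between 8.56 and 9.32.

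Col19a1, which in mouse brain is made by subsets of interneurons and acts in the formation of inhibitory synapses, was the 1 collagen that passed the test for a lead difference that changes with genotype. It had 10.32, 10.20 and 9.85 in the Mt-KO, heterozygous and wild-type lead pools, against 9.99, 9.99 and 10.28 in the saline pools. Lead was above saline in Mt-KO and heterozygous brain and below it in wild-type brain, and relative to the array medians the 3 differences were 0.24, 0.07 and -0.24. The interaction of lead with the number of intact alleles was -0.38 per allele (SE 0.11, limma adjusted p = 0.0256). It was 1 of 29 collagens to pass (3.45%), a share near the 3.77% of all genes that passed (3.34% with a coefficient below 0), and the median interaction coefficient was -0.07 for collagens and -0.15 over all genes. At an unadjusted p under 0.05 the counts were 10 of 29 collagens (34.5%) and 20.1% of all genes.

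That call did not hold in every summary. After each array was centred on its median the Col19a1 coefficient was -0.24 (adjusted p = 0.16), and with GC-RMA it was -0.14 (adjusted p = 0.692). A second Col19a1 probe set, at 9.98, 10.01 and 9.81 in the lead pools and 9.90, 9.90 and 10.23 in the saline pools, gave pair differences of -0.01, -0.03 and -0.24, and the remaining one, with a mean GC-RMA value of 2.65, gave -0.19, -0.12 and 0.61. Without either wild-type array the adjusted p was 1.

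The transmembrane collagens held the other neuronal member. Col25a1, a collagen of neurons that in mouse is needed for motor axons to innervate muscle, had 11.15, 11.01 and 10.55 in the Mt-KO, heterozygous and wild-type lead pools, against 10.72, 10.86 and 10.84 in the saline pools. The Mt-KO lead pool was highest and the wild-type lead pool lowest, a range of 0.59 that was, as deposited, the widest among the collagens tested. Relative to the array medians Col2a1 spanned more, from -1.75 to -1.21, against -0.32 to 0.13 for Col25a1. Lead minus saline of Col25a1 relative to those medians was 0.34, 0.01 and -0.11. Its interaction coefficient was -0.36 per allele (SE 0.12, adjusted p = 0.0531), and its coefficients were 0.24 (SE 0.16) for Mt-KO and 0.24 (SE 0.16) for the heterozygote. A second Col25a1 probe set, with a mean GC-RMA value of 1.78, gave -0.21, -0.04 and 0.48.

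Col23a1, a transmembrane collagen that is shed from the cell surface, had 9.64, 9.79 and 9.71 in the lead pools of Mt-KO, heterozygous and wild-type brain, against 9.75, 9.82 and 9.72 in the saline pools. Lead was below saline in all 3 pairs as deposited but not relative to the array medians, where the wild-type difference was 0.17. Its other probe sets gave -0.07, 0.12 and 0.03, and 0.01, 0.16 and 0.24. Col13a1, a collagen of the neuromuscular junction, and Col17a1, of skin hemidesmosomes, were not tested at means of 8.13 and 6.06.

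Type VI collagen forms beaded filaments around many cells. Col6a1 had 10.20, 10.21 and 10.18 in the Mt-KO, heterozygous and wild-type lead pools, against 10.08, 10.18 and 10.28 in the saline pools. Col6a2, a chain that assembles with the Col6a1 product, had 11.11, 11.28 and 11.21 in the lead pools, against 11.25, 11.16 and 11.23 in the saline pools. The groups overlapped for both. The 2 genes stood far apart in GC-RMA, with means of 10.31 for Col6a1 and 2.89 for Col6a2, and a second Col6a2 probe set had 3.38.

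Col6a3, the long chain of classical type VI collagen, had 9.84, 9.83 and 9.68 in the lead pools of Mt-KO, heterozygous and wild-type brain, against 9.53, 9.73 and 9.97 in the saline pools. The saline pools spanned the lead pools, and the interaction coefficient of -0.30 (SE 0.11) did not pass (limma adjusted p = 0.0822). Col6a4, an additional type VI chain, had 10.12, 10.05 and 10.30 in the lead pools, against 10.24, 10.30 and 9.97 in the saline pools, and its second probe set gave -0.25, -0.10 and 0.43. Col6a5 had a mean of 7.02 and was not tested.

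The remaining classes held few tested genes. Col8a1, a short-chain collagen of endothelium and cornea, had 9.46, 9.73 and 9.85 in the Mt-KO, heterozygous and wild-type lead pools, against 9.72, 9.63 and 9.57 in the saline pools. Relative to the array medians, lead minus saline was -0.35, -0.04 and 0.46 in the Mt-KO, heterozygous and wild-type pairs, but the interaction coefficient of 0.27 (SE 0.11) did not pass (adjusted p = 0.123), and 2 further probe sets gave wild-type differences of -0.17 and -0.12 against 0.46. Col10a1 and Col8a2, at means of 8.98 and 8.35, were not tested.

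Col18a1, a basement membrane collagen that yields endostatin, had 10.38, 10.38 and 10.38 in the lead pools of Mt-KO, heterozygous and wild-type brain, against 10.37, 10.31 and 10.29 in the saline pools. Its range of 0.09 was, as deposited, the smallest of the collagens tested, at a mean GC-RMA value of 2.69. A second probe set with a mean of 5.61 gave -0.10, -0.11 and 0.36. Col15a1, a related basement membrane collagen, had 9.59, 9.48 and 9.40 in the lead pools, against 9.43, 9.55 and 9.39 in the saline pools.

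For Mt-KO against wild-type brain, the largest collagen coefficient by t belonged to Col7a1, the collagen of the anchoring fibrils that fasten epithelia to the dermis. It had 9.38 and 9.37 in the Mt-KO lead and saline pools and 9.54 and 9.49 in the heterozygous ones, against 9.72 and 9.56 in the wild-type lead and saline pools. The Mt-KO pools were below both wild-type pools, with a coefficient of -0.27 (SE 0.14, unadjusted p = 0.0499, limma adjusted p = 1), but its mean GC-RMA value was 2.58 and the coefficient from GC-RMA was -0.08. Col26a1 had 9.73 and 9.67 in the Mt-KO lead and saline pools and 9.42 and 9.36 in the heterozygous pools, against 9.45 and 9.54 in the wild-type pools. Its coefficient for Mt-KO was 0.20 (SE 0.14), and its second probe set had an RMA mean of 7.31. The collagen median was 0.02 for Mt-KO and 0.03 for the heterozygote, against -0.03 and 0.00 over all genes tested.

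**Figure D3:**
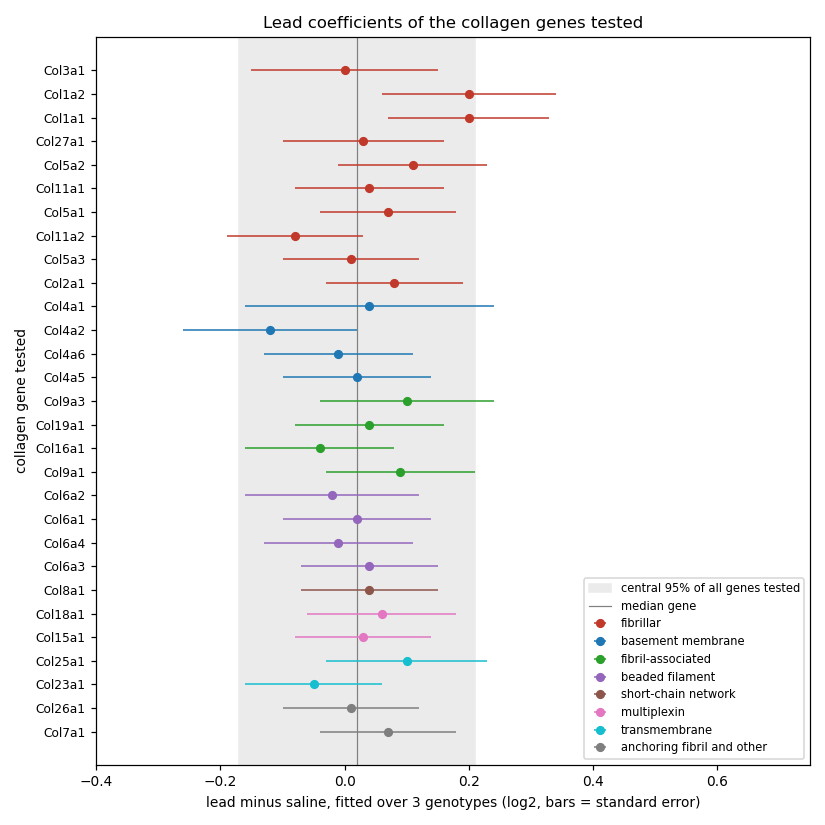
Lead minus saline fitted over the 3 genotypes (log2) for the 29 collagen genes tested, with bars for the standard error, coloured by class. The grey band spans the central 95% of all genes tested, -0.17 to 0.21, and all 29 collagen estimates lie inside it.

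Over the 3 pairs, lead was above saline relative to the array medians in every pair for Col1a1, Col5a2 and Col9a3, the last by 0.00 as rounded in the heterozygous pair. These were 3 of 29 collagens (10.3%), against 12.7% of all genes tested, and 0 of 29 were below in every pair, against 9.85%. As deposited, Col1a1, Col9a3, Col18a1 and Col7a1 were above in every pair, against 8.55% of all genes, and only Col23a1 was below, against 3.89%. The range over the 6 pools, as deposited, had a median of 0.32 for the collagens tested and 0.34 for all genes tested.

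In the wild-type pair, most collagens lay above the array median difference. Lead minus saline exceeded it in 22 of 29 collagens, with a median of 0.17, whereas 16 of 29 exceeded it in the Mt-KO pair and 8 of 29 in the heterozygous pair, with medians of 0.00 and -0.07. The wild-type lead pool was the highest of the 6, relative to the array medians, for 13 of 29 collagens (44.8%), against 24.6% of all genes. Over all genes the wild-type difference was larger at lower GC-RMA values, as described next.

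**Figure D4:**
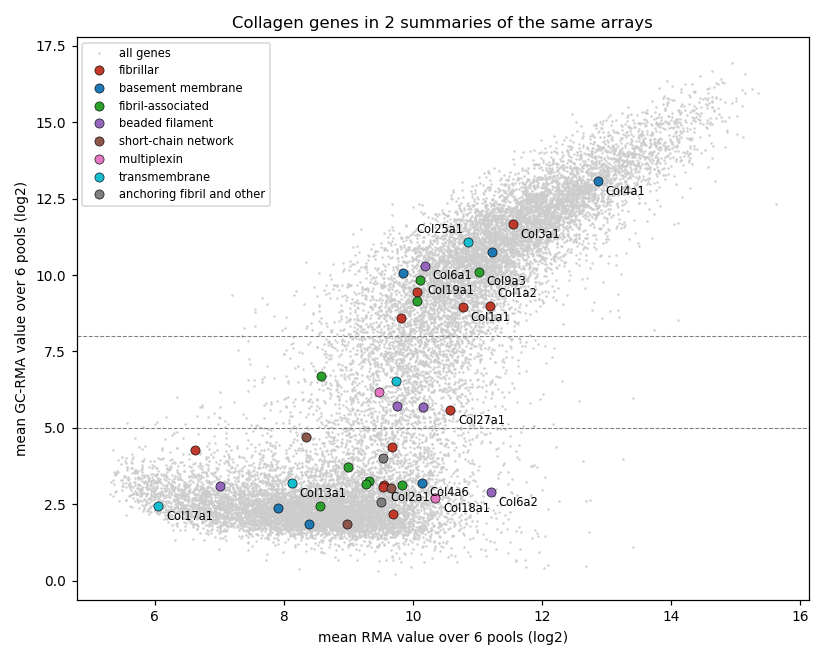
Mean GC-RMA value against mean RMA value (both log2, over the 6 pools) for all genes in grey and the 42 collagen genes in colours by class. Dashed lines mark GC-RMA values of 5 and 8, and 23 collagens lie below 5, including Col6a2 and Col18a1, whose RMA means are above 10.

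The collagens fell into 3 bands of mean GC-RMA value, with limits of 5 and 8 set after the data were seen. There were 13 collagens at 8 or over, among them Col1a1, Col1a2, Col3a1, Col4a1, Col4a2, Col19a1 and Col25a1, 6 between 5 and 8, and 23 under 5. Of all genes, 43.8%, 9.35% and 46.9% lay in these bands. In the wild-type pair the median difference relative to the array medians was 0.08, 0.20 and 0.28 for collagens in bands from high to low, and -0.06, 0.06 and 0.22 for all genes. It was above 0 in 7 of 13, 5 of 6 and 21 of 23 collagens, against 38.2%, 59.5% and 89.5% of all genes.

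The other pairs ran the opposite way in both sets. In the Mt-KO pair the medians from high to low band were 0.06, -0.02 and -0.17 for collagens and 0.04, -0.04 and -0.15 for all genes. In the heterozygous pair they were 0.01, -0.19 and -0.09 for collagens and 0.06, -0.05 and -0.12 for all genes. The standard deviation of RMA values over all probe sets moved with this, at 1.90 with lead and 1.83 with saline in Mt-KO, 1.91 and 1.84 in heterozygous, and 1.84 and 1.93 in wild-type brain. Its part in the pair differences was not tested.

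**Figure D5:**
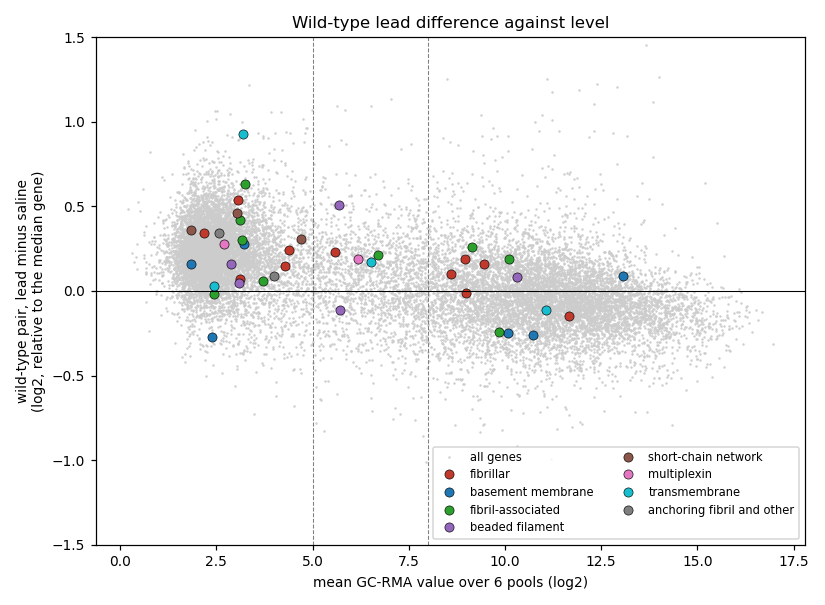
Lead minus saline in the wild-type pair relative to the array medians (log2) against mean GC-RMA value (log2), for all genes in grey and the 42 collagen genes in colours by class. Collagens under a GC-RMA value of 5 lie above 0 in 21 of 23 cases, as does most of the grey cloud there.

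Genes that act on collagens gave no passing member for lead or Mt-KO. Of 18 measured genes of collagen modification and folding, 14 were tested and 0 passed, with a median lead coefficient of 0.02 and a median Mt-KO coefficient of 0.01. In this list Sec31a, a coat subunit of the vesicles that export procollagen, had a lead coefficient of 0.14 (SE 0.14), and P3h4, a partner of lysine hydroxylation, had 0.10 (SE 0.11). Serpinh1, the collagen chaperone, was named after its values were seen and had 11.62, 11.73 and 11.44 in the Mt-KO, heterozygous and wild-type lead pools, against 11.55, 11.53 and 11.41 in the saline pools. Its heterozygous lead pool was the highest, as for type I collagen.

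Of 13 measured processing and crosslinking genes, 8 were tested and 0 passed, with medians of 0.01 for lead and -0.01 for Mt-KO. Loxl3, a lysyl oxidase, and Mmp14, a membrane collagenase, had Mt-KO coefficients of 0.18 (SE 0.14) and 0.17 (SE 0.16). Of 13 basement membrane partners, 7 were tested and 0 passed, with medians of -0.04 for both. Lama4, a laminin chain of vessels, had a lead coefficient of -0.15 (SE 0.11), and Hspg2, perlecan, a Mt-KO coefficient of -0.22 (SE 0.20).

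Of 10 collagen receptors, 5 were tested and 0 passed, with medians of 0.11 for lead and -0.03 for Mt-KO. Itgb1, the beta subunit of collagen-binding integrins, had a Mt-KO coefficient of 0.24 (SE 0.19), and Ddr1, a collagen-activated kinase also found in oligodendrocytes, a lead coefficient of 0.19 (SE 0.15). Of 8 small leucine-rich proteoglycans, 4 were tested and 0 passed, with a median lead coefficient of -0.09. Fmod, which binds type I fibrils, had -0.21 (SE 0.11).

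The cell type lists that could carry collagen transcripts also gave 0 passing genes for lead and for Mt-KO. There were 8 tested meningeal fibroblast markers, 8 pericyte and smooth muscle markers, 8 endothelial markers, 3 choroid plexus markers and 4 markers of skull, cartilage, bone, skin and muscle, with median lead coefficients of -0.06, -0.07, -0.04, 0.04 and -0.08. The meningeal marker Aldh1a2, a retinoic acid synthesis enzyme, had 9.86 and 9.73 in the Mt-KO lead and saline pools and 9.52 and 9.64 in the heterozygous pools, against 9.45 and 9.21 in the wild-type pools. Both Mt-KO pools exceeded both wild-type pools, but the coefficient of 0.46 (SE 0.14) did not pass (limma adjusted p = 0.122). Islr, also of meningeal fibroblasts, had 0.35 (SE 0.16). Over the 8 tested meningeal markers the Mt-KO coefficients ranged from -0.37 for Ptgds to 0.46, with a median of 0.04. Acta2, smooth muscle actin, had a lead coefficient of -0.25 (SE 0.14), and Tek, an endothelial receptor, a Mt-KO coefficient of 0.24 (SE 0.13). For the interaction, 412 of all genes tested passed (3.77%), 365 of them with a coefficient below 0. In these lists 2 markers passed, both with a coefficient below 0. They were Tek (-0.38 per allele, SE 0.10, limma adjusted p = 0.0162) and the skin keratin Krt10 (-0.35, SE 0.11, adjusted p = 0.0355).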

How the data were processed

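Expression was measured in 6 pools of whole-brain RNA, 1 Affymetrix array each. The 18 deposited columns are 3 summaries of these arrays and were never counted as replicates. Both RMA and GC-RMA were deposited as log2 values, and the deposited PLIER values are linear intensities, used here as log2(value + 16). Per the submitters' processing notes Partek, RMA, GCRMA and PLIER were used. In the sources used here their versions were not given. The labels name a whole-transcript labelling kit, although the identifiers belong to a 3' expression array.

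Of 45101 probe sets, the platform annotation gave 34958 exactly 1 symbol, 932 several and 9211 none, and only the first were used. The 42 collagen genes have 82 such probe sets, and 27 of the genes have more than 1. The brightest probe set per gene by mean RMA value entered the fits.

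Testing used limma 3.58.1 (R 4.3.3), by lmFit and eBayes with a trend, two-sided, with Benjamini-Hochberg adjustment over all 10916 genes and a threshold of 0.05. The additive model of treatment and genotype yielded the lead coefficient (3 arrays against 3) and the Mt-KO and heterozygous coefficients (2 against 2, sharing the wild-type arrays). A second fit tested lead by number of intact alleles, taken as linear. Each left 2 residual degrees of freedom, and the prior was infinite, which gives every gene the typical spread at its brightness. The fits were tested on simulated data, and precision is limited by the number of arrays.

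Values in every pool are given for up to 4 tested members per class by mean RMA value (6 for fibrillar), for the 3 members with the largest t for lead, Mt-KO and the interaction, and for any that passed. Up to 2 tested members per partner or marker list are named by the size of t for lead or Mt-KO. Dcn, Ptgds, Ibsp and Sp7 were named outside this rule, and further genes named after their values were seen are stated above. Members and lists were chosen with earlier results of these data known. Alternatives were the other summaries, quantile normalization, centring, other filters, the mean over probe sets, a linear allele term, no genotype block, no trend in eBayes, a threshold of 0.10 and leaving out pairs or arrays. Taking the probe set with the highest GC-RMA value, with RMA values kept, was chosen after seeing the data.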

Additional observations from a re-analysis of the deposited data

Results flagged for a closer look

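The interaction coefficient of Col19a1, -0.38 per intact allele (SE 0.11, limma adjusted p = 0.0256), was singled out because the test of the difference between genotypes passed, with lead above saline in Mt-KO and heterozygous brain and below it in wild-type brain. Over its 14 alternatives the coefficient ranged from -0.52 to -0.12 and the adjusted p from 0.0202 to 1, and it passed in 4 of them.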

How the results depend on the processing

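No collagen passed for lead under any alternative except the fit without the wild-type pair, so leaving out a pair gave 0 to 5. The 5 were Col1a1 (0.30, limma adjusted p = 0.0126), Col1a2 (0.39, 0.00112), Col25a1 (0.29, 0.0105), Col19a1 (0.27, 0.0171) and Col4a5 (0.24, 0.0314), where 24.1% of all genes passed. The median collagen lead coefficient, 0.036, stayed between -0.005 and 0.056 under its 13 alternatives. With PLIER 0.623% of all genes passed for Mt-KO. For Mt-KO, PLIER gave 1 collagen (Col9a1), and leaving out an array gave 0 to 7, with 7 without the wild-type lead array (40.1% of all genes passed) and 6 without the wild-type saline array (22.3%). For the heterozygote, leaving out an array gave 0 to 7, with 3 without the wild-type lead array (Col19a1, Col4a2 and Col6a4, 22.2%) and 7 without the wild-type saline array (24.1%). The Col25a1 coefficients reversed without the wild-type lead array, and that for Mt-KO also without the Mt-KO lead array, ranging from -0.05 to 0.52 for Mt-KO and from -0.05 to 0.53 for the heterozygote. The cause was not tested.

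The interaction count was 1 and became 0 with GC-RMA, quantile normalization, centring, no filter, the upper 40% of genes (where Col19a1 was not tested) and eBayes without trend. It was 2 with the mean over probe sets (Col3a1 and Col6a3, with 4.65% of all genes) and 4 at a threshold of 0.10 (Col19a1, Col25a1, Col4a5 and Col6a3, with 6.75%). Leaving out an array gave 0 to 6, with 0 without either wild-type array or the Mt-KO saline array, 2 without the heterozygous lead array (Col19a1 and Col25a1, with 5.95% of all genes) and 6 without the Mt-KO lead array (9.43%). An array left alone in its genotype is assumed to vary like the others. The labels give no replicate numbers to pair by, and the lead comparison is paired by genotype, with a count of 0 also without the genotype block. Probe sets with low GC-RMA values limit what 23 of the 42 collagens can show.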
